A study of Rattus norvegicus with 72 samples.

Results

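The genes described are 41 named genes of the cytoskeleton and of hepatocyte dedifferentiation, measured in primary rat hepatocytes on Affymetrix arrays. They were taken by symbol: every probe set that the platform annotation gives to 1 of these genes alone was a member, with control probe sets left out. Of the 41 genes, 35 had 51 probe sets of their own, out of 14217 genes with a probe set in the series. The test covered 33 of them with 45 probe sets, because the single probe sets of Krt19 and Tubb2b were too dim for the filter on low values. Actb, Myl6, Cfl1, Tmsb10, Tuba1a and Tuba1b were found only in probe sets shared with other genes, so no value is given for them. For the 8 genes with several tested probe sets, the one of highest mean stands for the gene.

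The cells were isolated from rat liver with collagenase, plated as a monolayer, kept in serum for the first hours and then without serum in a medium with hydrocortisone and insulin. Exposure began less than a day after plating, and RNA was taken at 24 h and 72 h. The 8 compounds were the genotoxic carcinogens aflatoxin B1 (19 nM), 4-(methylnitrosamino)-1-(3-pyridyl)-1-butanone (NNK, 625 µM) and 2-nitrofluorene (78 µM), the non-genotoxic carcinogens Wy-14643 (250 µM), piperonyl butoxide (13.4 µM) and methapyrilene (8.5 µM), and the non-carcinogens nifedipine (156 µM) and clonidine (277 µM). Each compound had 3 arrays per time, and 4 control groups of 3 arrays per time served them: 1 for Wy-14643, clonidine and aflatoxin B1 together, 1 for 2-nitrofluorene, piperonyl butoxide and nifedipine together, and 1 each for NNK and methapyrilene. That makes 72 arrays in 24 groups. The sources used here give neither the rat strain, sex or age nor what the control cells received.

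The sample titles carry a D number, which ran from 1 to 3 in the set of Wy-14643, clonidine and aflatoxin B1. Its 8 arrays of D number 3 went against their time labels. A culture-time score was built from 3920 probe sets outside the gene list that changed over time in the other controls. Between the labelled 72 h and 24 h arrays the score differed by −0.66 to −0.35 in the 4 pairs of D number 3, and by 0.35 to 1.22 in the 23 other pairs that did not define it. The same 8 arrays, with 2 aflatoxin B1 arrays (replicate 1 at 24 h, replicate 2 at 72 h), had a log2 ratio of the 3′ to the 5′ actin control probe sets, a measure of RNA integrity, of 1.84 to 2.71, against 0.36 to 1.11 on the other 62 arrays. Array medians ran from 15.76 to 23.8 units, and the summed intensity of 25 hepatocyte marker genes from 40100 to 96100. Counts, medians and named differences of the listed genes that rest on D number 3 are in most cases given with and without it.

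Actin filaments, built from actins and shaped by crosslinkers, tropomyosins and myosin light chains, anchor at focal adhesions and carry tension across the cell. Intermediate filaments of a hepatocyte are made of the keratins Krt8 and Krt18, and vimentin is the filament protein of mesenchymal cells. Hepatocytes plated on a stiff surface spread, form stress fibres and lose liver functions, a process called dedifferentiation. Genes of actin and contraction are known targets of SRF, which binds the CArG box, and adhesion genes of TEAD factors, the DNA-binding partners of YAP.

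Start-site windows (250 bases before to 50 after the start, RefSeq, GRCr8) were on hand for 33 of the 41 genes. Actb, Actn4, Tagln, Myl9, Krt7, Krt19, S100a10 and Lgals1 had no window and were not searched. A CArG box (its letters are CC, 6 of A or T, GG) lay in 2 of these 33 windows (6.06%), against 1.64% of all 33469 windows. The 2 are shown because they are the only ones among the 33 windows searched, with the CArG box in capitals. Actg1 (chr10:106121007-106121066, minus strand) has it 90 bases before the start, and Cnn2 (chr7:10370349-10370408, minus strand) 71 bases before.
Actg1: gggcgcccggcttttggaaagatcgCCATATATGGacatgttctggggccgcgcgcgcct
Cnn2: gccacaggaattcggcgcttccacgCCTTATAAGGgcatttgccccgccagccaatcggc

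The core TEAD letters GGAATG, searched on both strands, lay in 9 windows (27.3%, against 14.2% of all windows): Acta2, Tagln2, Tpm1, Flna, Vcl, Zyx, Pfn1, Anxa1 and Anxa2. Shown are 3 whose genes the results below turn on, Anxa1 and Flna over culture time and Tagln2 after Wy-14643, each as its gene's strand with the reverse complement CATTCC in capitals. They lie at chr1:227303950-227303982 (Anxa1, minus strand, match 248 bases before the start), chrX:157182387-157182442 (Flna, minus strand, 74 before) and chr13:87499213-87499268 (Tagln2, plus strand, 170 before, the farther of its 2 matches).
Anxa1: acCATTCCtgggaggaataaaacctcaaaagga
Flna: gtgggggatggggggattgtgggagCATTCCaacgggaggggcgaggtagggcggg
Tagln2: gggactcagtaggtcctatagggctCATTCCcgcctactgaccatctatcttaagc
The AP-1 letters TGANTCA lay in the windows of Krt8 and Anxa2 (6.06%, against 7.33% of all). Anxa2 held this and GGAATG at separate places, and no member's matches overlapped. Vim, Msn and Tubb6, described below, had none of the 3 in their windows. A match is a stretch of letters, and no binding was measured.

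Over culture time in control cells, genes of membrane linkage, calcium binding and contraction were among those that rose, while actins and hepatocyte keratins did not pass. Values are MAS5 intensities, and differences are log2 of 72 h over 24 h with their standard error (SE) and the Benjamini-Hochberg adjusted p of limma over all 18048 tested probe sets. In the 3 control sets outside D number 3 (9 arrays per time), 12 of 33 genes were higher and 1 was lower at 72 h, at an adjusted p under 0.05. That is 39.4% of the genes, against 21.8% of all tested probe sets, of which 13.2% were higher and 8.62% lower. The median difference was 0.32 over the 33 genes and 0.03 over all probe sets. The control sets of NNK and of 2-nitrofluorene carry the same D numbers (7 to 9), and whether they share cultures is not given in the labels. In D numbers 7, 8 and 9 the pair medians over the 33 genes were −0.142, 0.702 and 0.322 in the 2-nitrofluorene controls. In the NNK controls they were 0.405, 0.745 and 0.399. Because the D numbers recur, the 9 arrays per time may stand for fewer than 9 independent cultures. With the D number as a block the count was 14, though over culture time the D number did not pair the arrays of the NNK and 2-nitrofluorene controls.

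**Figure D1:**
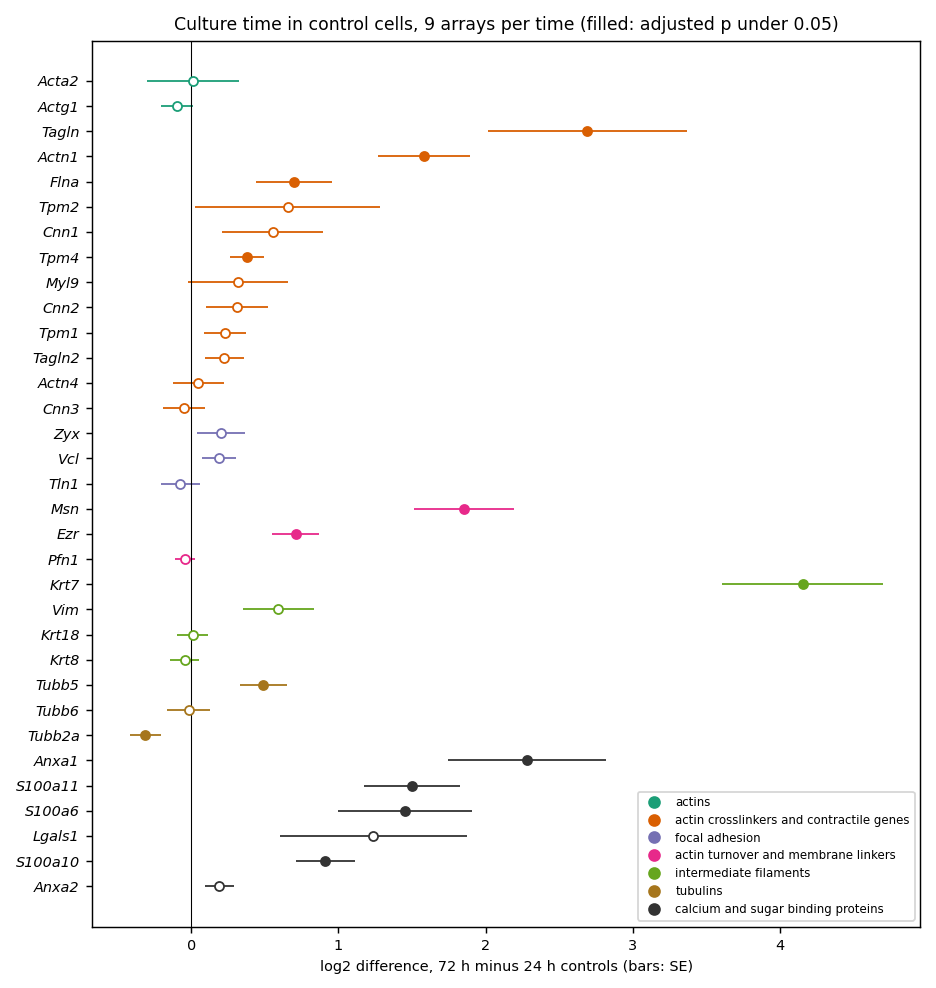
Log2 difference between 72 h and 24 h control cells (x axis) for each of the 33 tested genes (y axis), in blocks by role. Points are estimates over 9 arrays per time in 3 control sets, bars are SE, and filled points have an adjusted p under 0.05; Krt7 stands farthest right at 4.15, and both actins lie near 0.

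Among the intermediate filament genes, Krt7, a keratin of bile duct and other simple epithelia, had the largest difference in the list. Its lowest, median and highest control intensities were 10.9, 45.0 and 237 at 72 h, against 0.42, 0.88 and 1.86 at 24 h. All 9 arrays at 24 h lay below the floor of 3.117 units, and every array at 72 h lay above it, so Krt7 was at least 17.8-fold higher at 72 h (log2 4.15 ± 0.55, adjusted p = 4.49e-07).

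The hepatocyte keratins did not pass. Krt8 read 4861, 5525 and 7450.5 (lowest, median, highest) at 72 h and 4992.5, 5891.5 and 7302.5 at 24 h, a log2 difference of −0.04 ± 0.10 with a 95% interval of −0.24 to 0.15. Krt18 read 3264, 4538 and 6233 at 72 h and 3768, 4442.5 and 5958 at 24 h (0.01 ± 0.10, interval −0.19 to 0.21). The groups of both genes overlapped almost entirely.

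Vim read 1468, 1923 and 2514 at 72 h and 842, 1384 and 1958 at 24 h. It was higher at 72 h in 9 of 9 pairs of arrays with the same D number and set, but the groups overlapped, and its difference of 0.59 ± 0.24 missed the threshold (adjusted p = 0.0702). It passed with the D number as a block (adjusted p = 0.0293), which did not pair the arrays of the NNK and 2-nitrofluorene controls. Krt19, below the filter, read 1.53, 4.90 and 28.5 at 72 h and 0.58, 1.07 and 9.21 at 24 h.

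Of the 12 actin crosslinkers and contractile genes, 4 rose and none fell, with a median of 0.35. Tagln (transgelin, an actin-binding protein of smooth muscle) read 320.4, 1111 and 2153 at 72 h and 52.4, 160.4 and 432 at 24 h (2.69 ± 0.68, adjusted p = 0.00297). The 72 h and 24 h arrays of Tagln overlapped, and each of the 9 pairs was higher at 72 h. Actn1, an actin crosslinker of stress fibres and adhesions, read 657, 1757 and 2376 at 72 h and 249, 522 and 996 at 24 h (1.58 ± 0.31, adjusted p = 0.000224), and its other probe set rose by 1.30. The remaining 2 calls were smaller.

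Flna, which crosslinks actin and ties it to membrane proteins, rose by 0.70 ± 0.26 (adjusted p = 0.0429). The tropomyosin Tpm4, which coats actin filaments, rose by 0.38 ± 0.12 (adjusted p = 0.0149), while its second probe set read 0.64 with an adjusted p of 0.293. The Flna call was lost on leaving out most of the single arrays of these sets (adjusted p of 0.0526 to 0.124). That of Tpm4 was lost without methapyrilene control replicate 2 at 72 h (adjusted p = 0.0606). The other 8 did not pass: Tpm1 differed by 0.23 ± 0.14 (adjusted p = 0.253), Cnn1 by 0.55, Tpm2 by 0.66, Myl9 by 0.32, Cnn2 by 0.31, Tagln2 by 0.23, Actn4 by 0.05 and Cnn3 by −0.05.

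The actins gave no call. Actg1, a cytoplasmic actin, read 4292, 4789 and 7316 at 72 h and 4531, 5188 and 7600.1 at 24 h (−0.10 ± 0.11, adjusted p = 0.587). Acta2, the actin of smooth muscle and activated stellate cells, read 78.7, 174 and 299.8 at 72 h and 105, 151 and 403 at 24 h (0.02 ± 0.31, 95% interval −0.60 to 0.63). The signs of both differences turned with quantile normalization.

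The focal adhesion genes Vcl, Zyx and Tln1 (vinculin, zyxin and talin) gave no call, at 0.19, 0.20 and −0.07. Among the actin turnover and membrane linker genes, the linkers between actin and the membrane rose. Msn (moesin) read 195, 723 and 1397 at 72 h and 96.3, 167 and 309 at 24 h (1.86 ± 0.34, adjusted p = 7.94e-05), and its other probe set rose by 1.76. Ezr (ezrin) read 69.7, 104 and 131 at 72 h and 46.7, 62.3 and 85.5 at 24 h (0.71 ± 0.16, adjusted p = 0.00103). Pfn1 (profilin, which feeds monomers to growing filaments) differed by −0.04 ± 0.07.

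Of the calcium and sugar binding proteins, 4 of 6 rose, and the median of the 6 was 1.35. Anxa1, an annexin that binds membranes when calcium is present, read 141, 343 and 539 at 72 h and 25.5, 57.1 and 139 at 24 h (2.28 ± 0.54, adjusted p = 0.00151). S100a11 read 3070.4, 3898 and 5177 at 72 h and 859, 1139 and 2962 at 24 h (1.502 ± 0.325, adjusted p = 0.000613). In both genes all 72 h arrays stood above all 24 h arrays.

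S100a6 read 1101, 2625 and 3510.5 at 72 h and 423, 807 and 1868 at 24 h (1.46 ± 0.45, adjusted p = 0.0163). S100a10, the partner of annexin A2, read 1937, 2907 and 3636 at 72 h and 1105.5, 1494 and 2137 at 24 h (0.91 ± 0.20, adjusted p = 0.000735). Lgals1, the galactoside-binding galectin 1, read 40.9, 122 and 242 at 72 h and 20.7, 38.7 and 139.7 at 24 h, and its difference of 1.24 ± 0.64 did not pass (adjusted p = 0.164). Anxa2 differed by 0.19 ± 0.10 (adjusted p = 0.166), while its dimmer probe set rose by 0.75.

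Of the tubulins, the building blocks of microtubules, Tubb5 rose by 0.49 ± 0.16 (adjusted p = 0.0218) and Tubb2a fell by 0.31 on the log2 scale (SE 0.10, adjusted p = 0.0258). Both calls were lost when certain single arrays were left out (adjusted p of 0.0557 to 0.0805 for Tubb5 and 0.0512 to 0.0753 for Tubb2a). Tubb2a read 1703, 2072 and 2383 at 72 h and 2022, 2439 and 3033 at 24 h, and was lower in each of the 9 pairs, though the groups overlapped. With quantile normalization Tubb2a missed the threshold (−0.21, adjusted p = 0.156). Tubb6 read 301, 578 and 762 at 72 h and 479, 538 and 679.9 at 24 h (−0.02 ± 0.15). Tubb2b, below the filter, read 1.08, 3.49 and 21.5 at 72 h and 0.63, 1.24 and 4.67 at 24 h.

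All 72 h arrays stood above all 24 h arrays for 3 genes (Krt7, Anxa1 and S100a11), against 1.77% of all probe sets, and below them for no gene, against 1.19%. Actn1, Anxa1, Ezr, Flna, Krt7, Msn, S100a6, S100a10, S100a11, Tagln, Tubb5 and Vim were higher at 72 h in 9 of 9 pairs. The share of all probe sets that were higher in every pair is not given here, so this list has no background beside it. Some of the pairs carry the same D numbers in different control sets and may not be independent.

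**Figure D2:**
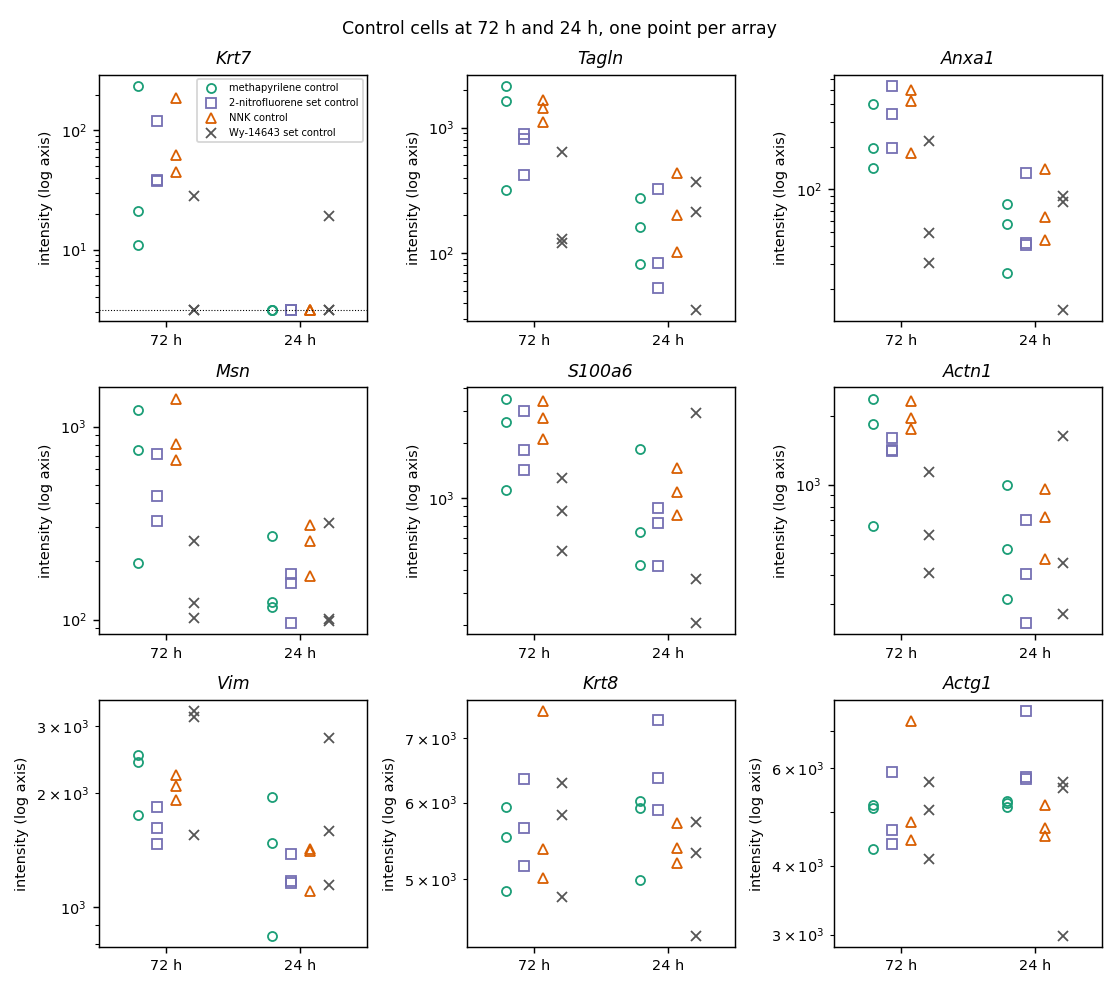
Intensity (log axis) of 9 genes in control cells at the labelled 72 h and 24 h, 1 point per array, with the 4 control sets marked apart. The dotted line in the Krt7 panel is the floor of 3.117 units; in the 3 sets other than that of Wy-14643, all 72 h points of Krt7 and Anxa1 lie above all 24 h points, while Krt8 and Actg1 overlap.

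Set by set, with 3 arrays per time, Krt7 alone passed in the 2-nitrofluorene control set (4.17, adjusted p = 0.0118; background 2.71% of probe sets called) and in the NNK control set (4.69, adjusted p = 0.00687; background 2.85%). Each call was lost without replicate 2 at 72 h of its set (3.61, adjusted p = 0.132, and 4.08, adjusted p = 0.0694). In the methapyrilene control set no gene passed (background 0.51%), Krt7 read 3.61 with an adjusted p of 0.0521, and 9 of the 33 genes had an unadjusted p under 0.05. With the D number as a block, 4 genes passed in that set: Krt7 (adjusted p = 0.00863), Msn (1.85, adjusted p = 0.0297), S100a10 (0.99, adjusted p = 0.0237) and Ezr (0.79, adjusted p = 0.0390). The medians over the 33 genes were 0.46 in the methapyrilene controls, 0.17 in the 2-nitrofluorene controls and 0.49 in the NNK controls.

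In the control set of Wy-14643, clonidine and aflatoxin B1 no gene passed by limma, none had an unadjusted p under 0.05, no probe set of the array was called (background 0%), and the median was 0.11. Of the 33 genes, 26 were higher at 72 h in the pair of D number 1 (median 0.38), 19 in D number 2 (median 0.02) and 13 in D number 3 (median −0.17). The named genes with large differences in the other sets show this pair by pair. Tagln differed by 1.58 in D number 1, 1.75 in D number 2 and −1.497 in D number 3. Anxa1 differed by 1.44, 1.80 and −1.56, S100a6 by 1.83, 1.32 and −1.78, Vim by 1.05, 1.47 and −0.85, and Krt7 by 3.16, 0 and −2.61, in the same order. D numbers 1 and 2 thus stood above 0 for the first 4 of these genes, and D number 3 below 0 for all 5. Other genes differed from this order: Flna and Tubb5 read −0.48 and −0.51 in D number 2, and Actg1 and Tln1 read 0.46 and 0.48 in D number 3. The set's median was 0.22 without D number 3, and no gene passed (3 at an unadjusted p under 0.05, smallest adjusted p 0.0661).

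A contrast of this set's time change with that of the other 3 sets, chosen after these values were seen, called none of the 33 genes and no probe set (background 0%). Of the 33 genes, 3 had an unadjusted p under 0.05, and Krt7 passed with the D number as a block (−3.97, adjusted p = 0.0341). The contrast includes D number 3, where Krt7 read −2.61, against 3.16 and 0 in D numbers 1 and 2. Its value without D number 3 is not given here. Over all 4 sets together 12 genes were called, 11 higher and 1 lower, against 15.9% of all probe sets.

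In the same control comparison, shares called in related lists are set against 21.8% of all probe sets. Of 54 other actin regulators and adhesion genes 18 rose and 2 fell (37%, median 0.22), among them Vil1 (villin, 2.12), Fhl2 (1.42), Tes (1.31) and Gsn (gelsolin, 1.25). Of 18 targets of SRF and YAP 9 rose and 1 fell (55.6%, median 0.53), with F3 (1.57), Egr1 (1.51), Ankrd1 (1.38) and Fos (1.25). Of 25 further dedifferentiation genes 11 rose and 1 fell (48%, median 0.31), with Cav1 (caveolin, 3.00), Lamb3 (2.10), Anxa3 (2.01) and Cd9 (1.62). Of 14 other microtubule genes 2 rose, Stmn1 (1.06) and Mapre1 (0.35), and 1 fell (21.4%, near the background).

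Hepatocyte markers moved the other way: 14 of 25 fell and none rose (56%, median −0.36), with Cyp2e1 at −3.17 and Cyp3a2 at −2.20. Markers of other liver cells are given by their sums. The summed intensity of 10 bile duct markers was 844 to 1311 at 72 h and 423 to 591.5 at 24 h. Of its 6 tested genes 5 were called (83.3%), 4 of them higher, led by Cd24 (5.15) and Cldn4 (2.08), and the other lower. The sum of 18 stellate cell and myofibroblast markers was 703 to 3132 at 72 h and 675 to 1873 at 24 h, with 1 of 13 tested genes higher and 2 lower (23.1%, near the background). The sum of 15 macrophage markers was 919 to 2332 at 72 h and 1194 to 2196 at 24 h, with 3 of 14 lower (21.4%, near the background). The sum of 13 endothelial markers was 104 to 262 at 72 h and 329 to 462.5 at 24 h, with 5 of 7 lower (71.4%). No marker of these lists lay at the floor on every array. The part of these cells in the rise of Krt7, Tagln, Anxa1 and the other genes was not tested, and fewer cells of a type and less RNA per cell cannot be told apart in RNA of whole cultures.

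Across the 24 groups the listed genes had a median range of group means of 1.65 on the log2 scale, against 1.15 over all probe sets, and a median SD within groups of 0.38, against 0.33. The widest ranges were those of Tagln (5.92), Krt7 (5.20), Anxa1 (4.61), Tpm2 (4.41), Lgals1 (4.30) and S100a6 (4.25). The narrowest were those of Pfn1 (0.37), Actg1 (0.64), Tln1 (0.72) and Anxa2 (0.73).

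Few of the genes were called with the compounds. The comparison for a compound took the control group of the same set and labelled time, 3 arrays against 3, with the spread of all 72 arrays. Calls were made in 3 of the 16 comparisons, aflatoxin B1 at 72 h and 24 h and Wy-14643 at 72 h, all of them lower, and Vim was among them each time. These 2 compounds share their control arrays, so their results are not independent.

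**Figure D3:**
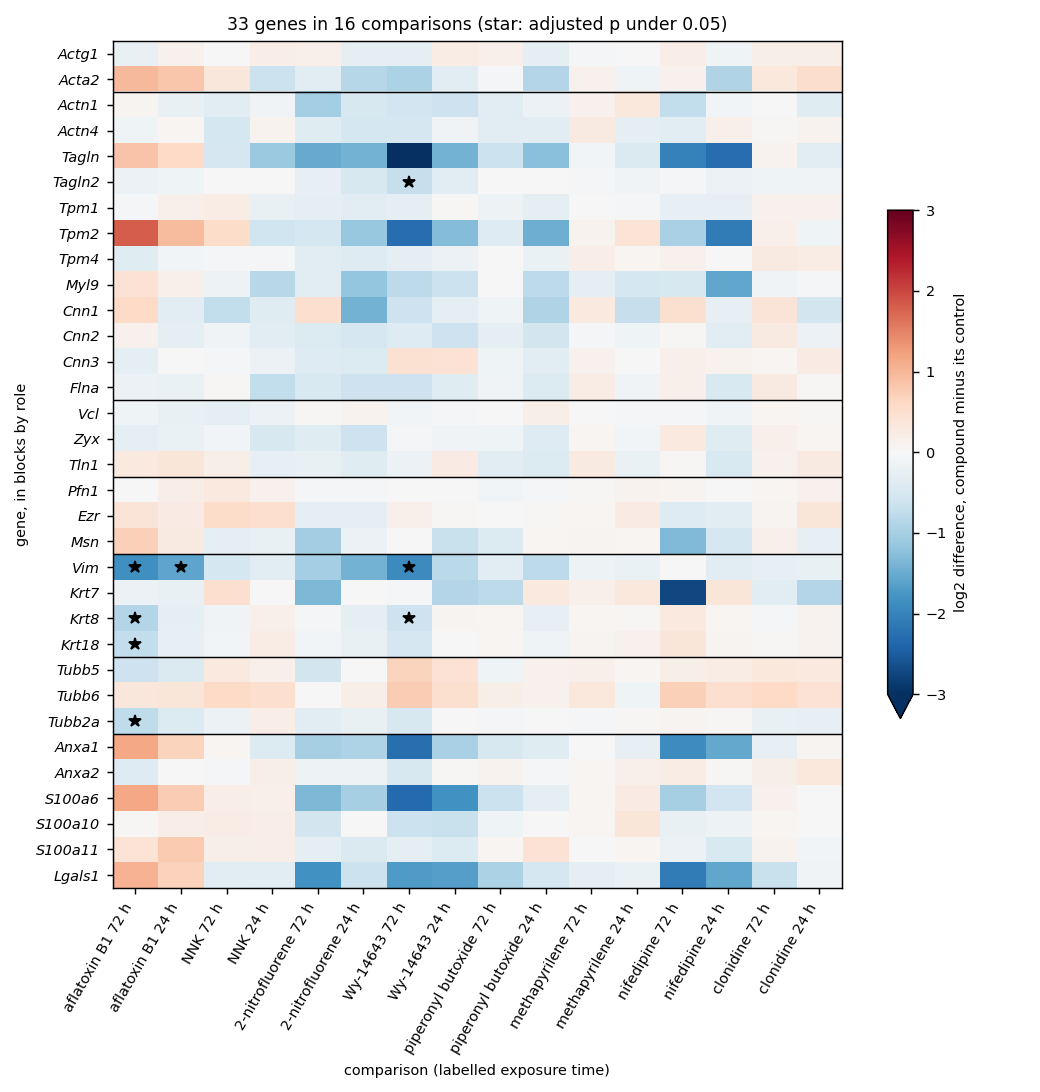
Log2 difference, compound minus its control, for the 33 tested genes (rows, in blocks by role) in the 16 comparisons (columns, labelled exposure time). Blue is lower and red higher with the compound, the colour ends at −3 and 3 with Tagln after 72 h of Wy-14643 beyond it, and stars mark an adjusted p under 0.05. The Vim row is blue or near 0 throughout, and the Tubb6 row is red or near 0 in most columns.

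After 72 h of aflatoxin B1, 4 of 33 genes fell (12.1%, against 4.91% of all probe sets, 2.78% higher and 2.13% lower), and none rose. They were Vim, the hepatocyte keratins Krt8 and Krt18, and the tubulin Tubb2a. The median over the 33 genes was −0.002, and over all probe sets 0.01.

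Vim read 1780.5, 291 and 695 with aflatoxin B1 at 72 h, against 3282, 3182.5 and 1552 in controls, for D numbers 1, 2 and 3 in each. The compound array of D number 1 lay above the control array of D number 3, so the groups overlapped, and each compound array lay below the control of its own number. The difference was −1.83 ± 0.42 (adjusted p = 0.00339). The compound group's SD was 1.31 on the log2 scale, against 0.53 within groups over the series.

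Krt8 read 3312, 2004.5 and 4305 with aflatoxin B1 and 6282, 5829 and 4789 in controls (−0.87 ± 0.17, adjusted p = 0.000526). Krt18 read 2544, 2123 and 4364 with aflatoxin B1 and 5189, 4683 and 4516 in controls (−0.74 ± 0.18, adjusted p = 0.00604). Tubb2a read 758, 1118 and 1509.9 with aflatoxin B1 and 1567, 2078 and 1877 in controls (−0.75 ± 0.18, adjusted p = 0.00552). In all 3 genes the groups did not overlap. In the whole list this held for 4 genes that were lower (background 5.73%), the other being Tubb5 at −0.63 ± 0.28 (adjusted p = 0.223), and for none that was higher. The dimmer probe set of Tubb5 read 226, 218 and 201 with aflatoxin B1 and 613, 347 and 328 in controls, also without overlap. Its test is not given here.

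Without D number 3, where 12.8% of all probe sets were called and the median over the 33 genes was 0.007, the calls were Vim (−2.17, adjusted p = 0.00133), Krt8 (−1.23, adjusted p = 9.56e-06), Krt18 (−1.08, adjusted p = 0.000122), Tubb2a (−0.97, adjusted p = 0.000603) and, in addition, Anxa2 (−0.66, adjusted p = 0.0123). That fit keeps aflatoxin B1 replicates 1 and 2, and replicate 2 is an array of high actin ratio. Leaving out the 10 arrays of high actin ratio left 1 aflatoxin B1 array at 72 h against 2 controls, so that this arm's spread is taken from other groups; Vim was then −0.86 with an adjusted p of 0.47, and Krt8, Krt18 and Tubb2a passed. Without aflatoxin B1 replicate 2 at 72 h, 1 gene of the 33 was called, and Vim read −1.19 (adjusted p = 0.243), Krt8 −0.57 (adjusted p = 0.0858) and Krt18 −0.52 (adjusted p = 0.25). The call of Tubb2a was lost without aflatoxin B1 replicate 1 (−0.49, adjusted p = 0.0838) or control replicate 2 (−0.66, adjusted p = 0.0681). A fit of this set's arrays alone called none, with adjusted p-values of 0.0971 to 0.193 for the 4 genes.

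After 72 h of aflatoxin B1, 6 of the 12 crosslinkers and contractile genes stood above 0 (median 0.002) and 5 of the 6 calcium and sugar binding proteins (median 0.73), with none called. The 6 highest of the 33 genes were these, with their values. Tpm2 differed by 1.82 ± 1.08 (adjusted p = 0.416; interval −0.30 to 3.95), S100a6 by 1.16, Anxa1 by 1.16, Lgals1 by 1.04, Acta2 by 0.98 and Tagln by 0.85. The values without D number 3 were 2.67, 1.68, 1.12, 1.41, 1.14 and 1.24 in the same order, with adjusted p-values of 0.156 to 0.622. Of 54 other actin regulators 1 was called (1.85%, against 4.91%), Capg (macrophage capping protein, which caps filament ends), which rose by 2.70. None of 18 SRF and YAP targets was called, and of 14 other microtubule genes Tbcb, a tubulin folding cofactor, rose (0.71). These lists of 54, 18 and 14 genes held, without D number 3, 5, 1 and 3 called genes, with Capg at 3.27. In that fit 12.8% of all probe sets were called, against 4.91% with D number 3. The summed intensity of 15 macrophage markers was 1763 to 2519 with aflatoxin B1 and 824 to 1564 in controls. Of its 14 tested genes 13 stood above 0 with none called. Without D number 3, 3 of the 14 were called higher, where 12.8% of all probe sets were called. The stellate cell sum was 763 to 1576 with aflatoxin B1 and 465 to 1723 in controls, and the hepatocyte sum 40100 to 77020 with aflatoxin B1 and 61360 to 74930 in controls. Their part in these differences was not tested.

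After 24 h of aflatoxin B1, Vim alone fell (1 of 33, 3.03%, against 3.33% of all probe sets, 1.53% lower), which is close to the share over the array. It read 474, 357 and 1114 with aflatoxin B1, against 1584, 1145 and 2797.5 in controls, and the groups did not overlap. The difference was −1.58 ± 0.42 (adjusted p = 0.0191), and −1.71 (adjusted p = 0.0281) without D number 3. The fit without D number 3 keeps aflatoxin B1 replicate 1, an array of high actin ratio. The call was lost without aflatoxin B1 replicate 1 (−1.45, adjusted p = 0.0718), aflatoxin B1 replicate 2 (−1.24, adjusted p = 0.143) or control replicate 3 (−1.23, adjusted p = 0.141). The median over the 33 genes was 0.06, and −0.017 without D number 3. The dimmer probe set of Tubb5, which does not stand for the gene, read 181, 333 and 140 with aflatoxin B1 and 367, 461 and 434 in controls. These groups did not overlap (6.57% of all probe sets lay wholly below), and the test of this probe set is not given here. Capg rose by 1.82 (1.63, adjusted p = 0.0656, without D number 3), and the macrophage sum was 1512 to 3080 with aflatoxin B1 and 725 to 1791 in controls.

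After 72 h of Wy-14643, a peroxisome proliferator that activates PPARα, 3 of 33 genes fell (9.09%, against 7.31% of all probe sets, 2.82% higher and 4.49% lower) and none rose. The median over the 33 genes was −0.47, against −0.03 over all probe sets, and 27 genes stood below 0. The called genes were Vim, Tagln2 and Krt8.

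Vim read 1382, 323 and 701 with Wy-14643, against 3282, 3182.5 and 1552 in controls, and the groups did not overlap. The difference was −1.90 ± 0.42 (adjusted p = 0.00207). Krt8 read 4653, 3125 and 3372 with Wy-14643 and 6282, 5829 and 4789 in controls, again without overlap (−0.61 ± 0.17, adjusted p = 0.0190). Tagln2, a transgelin of many cell types, read 1815, 924 and 795 with Wy-14643 and 2594, 1494 and 1464 in controls (−0.70 ± 0.23, adjusted p = 0.0459). The Tagln2 groups overlapped through the array of D number 1, and each compound array lay below the control of its number.

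With the D number as a block, which pairs the arrays in this comparison, 9 genes passed. Besides Vim (adjusted p = 0.000274), Krt8 (adjusted p = 0.0115) and Tagln2 (adjusted p = 0.0123), these were Tagln (−3.19, adjusted p = 0.0228, against 0.0873 without the block), S100a6 (−2.34, adjusted p = 0.0103, against 0.0561), Anxa1 (−2.27, adjusted p = 0.0415, against 0.131), Krt18 (−0.51, adjusted p = 0.0359, against 0.0684), Tubb2a (−0.47, adjusted p = 0.0205, against 0.103) and, upward, Tubb6 (0.76, adjusted p = 0.00108, against 0.0526).

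Tagln read 379, 1.45 and 11.05 with Wy-14643 and 639, 119.6 and 130.4 in controls, so that 1 compound array lay below the floor and 1 above 2 of the controls. S100a6 read 358, 34.7 and 348 with Wy-14643 and 1283.5, 514 and 854 in controls, without overlap. Tubb6 read 589.6, 1000.4 and 966 with Wy-14643 and 469.6, 429 and 586 in controls, also without overlap. In all, 4 genes (Vim, Krt8, Krt18 and S100a6) had every compound array below every control array, against 8.72% of all probe sets, and Tubb6 had every one above, against 5.05%.

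Without D number 3, 5 genes passed (9.15% of all probe sets did, and the median was −0.47): S100a6 (−2.87, adjusted p = 0.0147), Vim (−2.27, adjusted p = 0.0009), S100a10 (−0.99, adjusted p = 0.0367), Krt8 (−0.67, adjusted p = 0.0188) and Krt18 (−0.61, adjusted p = 0.0384), while Tagln2 did not (−0.60, adjusted p = 0.129). The count depended on single arrays of Wy-14643: none passed without replicate 2 (Vim −1.36, adjusted p = 0.0947) and 12 passed without replicate 1. Krt8 was also lost without Wy-14643 replicate 3 (adjusted p = 0.0692), control replicate 1 (0.101) or control replicate 2 (0.0795), and Tagln2 without Wy-14643 replicate 3 (0.276) or control replicate 1 (0.362). A fit of this set's arrays alone called none.

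In the other lists after 72 h of Wy-14643, shares called are set against 7.31% of all probe sets. Of 54 other actin regulators 4 fell and none rose (7.41%, close to that background): Lima1 (−1.05), Pxn (paxillin, −1.004), Limk2 (−0.76) and Diaph1 (a formin, −0.75). Of 18 SRF and YAP targets 4 fell and none rose (22.2%): Ankrd1 (−2.71), Ccn2 (−2.13), Ccn1 (−1.95) and Amotl2 (−0.86). Stmn1, which destabilises microtubules, rose by 1.71 as the 1 call among 14 microtubule genes (7.14%). Of 25 hepatocyte markers 10 fell and 1 rose (44%), and of 14 macrophage markers 5 fell (35.7%). Without D number 3, where 9.15% of all probe sets were called, 4 of 54 actin regulators and 3 of 18 SRF and YAP targets fell. So did 10 of 25 hepatocyte and 7 of 14 macrophage markers, and Ankrd1 did not pass (−2.37, adjusted p = 0.169).

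The macrophage sum was 479 to 874 with Wy-14643 and 824 to 1564 in controls. The stellate cell sum was 203 to 759 with Wy-14643 and 465 to 1723 in controls, with Ngfr and Postn at the floor on all 3 compound arrays and no stellate marker called. The hepatocyte sum was 44080 to 50450 with Wy-14643 and 61360 to 74930 in controls. The part of these cells in the lower levels of Vim, Tagln2 and the other genes was not tested.

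After 24 h of Wy-14643 no gene passed by limma (background 0.0443%), 1 had an unadjusted p under 0.05, and the median was −0.29 with 22 genes below 0. S100a6 differed by −1.82 ± 0.79 (adjusted p = 0.384) and Vim by −0.80 (adjusted p = 0.510). Without D number 3 the median was −0.12 with 26 genes below 0, S100a6 read −0.70 and Vim −0.34, and no gene had an unadjusted p under 0.05.

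**Figure D4:**
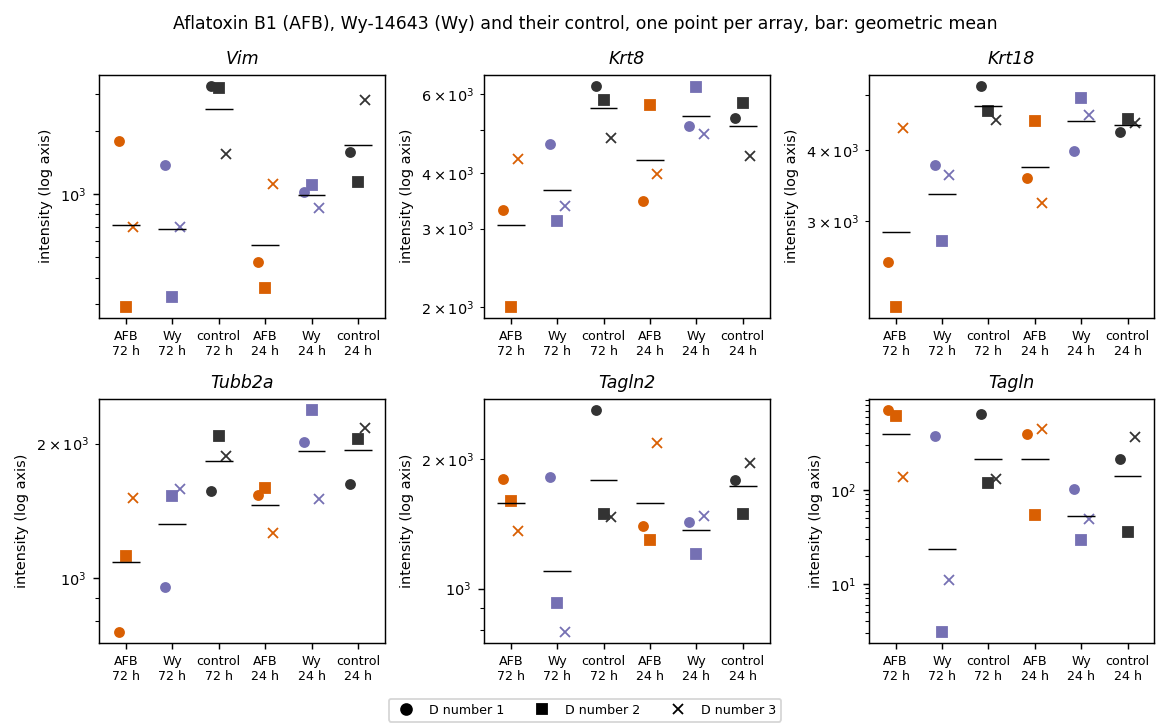
Intensity (log axis) of Vim, Krt8, Krt18, Tubb2a, Tagln2 and Tagln with aflatoxin B1 (AFB), with Wy-14643 (Wy) and in their shared control at the labelled 72 h and 24 h. Each point is an array, its shape gives the D number, bars are geometric means, and values below the floor are drawn at it. For Krt8 all compound points at 72 h lie below all control points, and for Vim 1 aflatoxin B1 point lies above the lowest control.

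With 2-nitrofluorene most genes stood below 0 and none passed in the fit of all arrays. At 24 h no gene was called by limma (background 1.13%), 4 had an unadjusted p under 0.05, 29 of 33 stood below 0, and the median was −0.41 against −0.04 over all probe sets. Vim read 415, 504 and 469 with 2-nitrofluorene, against 1160.0, 1175 and 1384 in controls, without overlap. Its difference of −1.42 ± 0.42 had an adjusted p of 0.0810, and 0.0199 with the D number as a block, which pairs these arrays. Cnn1, a calponin of smooth muscle, differed by −1.43 and Tagln by −1.42 (adjusted p = 0.316 and 0.784).

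In 7 genes every 2-nitrofluorene array at 24 h lay below every control array (Actg1, Actn4, Tpm4, Cnn1, Zyx, Vim and Krt8), against 12.5% of all probe sets. Outside the list, Tmsb4x (thymosin, which binds actin monomers) fell by 0.82 on the log2 scale (1 of 54 actin regulators) and Map4 by 0.90 (1 of 14 microtubule genes). The macrophage sum was 858 to 1460 with 2-nitrofluorene and 1225 to 2149 in controls, and its part was not tested.

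At 72 h of 2-nitrofluorene no gene was called (background 0.809%), 1 had an unadjusted p under 0.05, 29 stood below 0, and the median was −0.35 against −0.07 over all probe sets. Vim read 692, 847 and 868 with 2-nitrofluorene and 1468, 1614 and 1835 in controls, without overlap (−1.03 ± 0.42, adjusted p = 0.427). In 9 genes every compound array was below every control array, against 13.6% of all probe sets. The macrophage sum was 559 to 1247 with 2-nitrofluorene and 924 to 2063 in controls.

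Nifedipine, a calcium channel blocker, gave no call at 72 h (background 3.18%), with 4 genes at an unadjusted p under 0.05 and a median of −0.01. Krt7 read 6.89, 21.8 and 3.92 with nifedipine, against 37.8, 120.6 and 38.5 in controls, without overlap (−2.74 ± 0.94, adjusted p = 0.0933, and 0.0246 with the D number as a block, which pairs these arrays). Tubb6 read 751, 1117.5 and 614 with nifedipine and 423, 578 and 479 in controls, without overlap (0.71 ± 0.25, adjusted p = 0.102, and 0.00404 with the block). Lgals1, Tagln, Anxa1 and Msn differed by −2.11, −2.03, −1.88 and −1.32, with adjusted p-values of 0.225 to 0.389.

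In nifedipine cells at 72 h, 5 genes lay wholly below controls (Actn1, Actn4, Krt7, Anxa1 and Lgals1), against 20.2% of all probe sets, and 3 wholly above (Cnn3, Zyx and Tubb6), against 13.6%. The macrophage sum was 527 to 1154 with nifedipine and 924 to 2063 in controls, and 3 of its 14 genes fell. Its part was not tested. At 24 h no gene was called (background 0.46% of probe sets, 0.271% higher), 2 had an unadjusted p under 0.05, 23 stood below 0, and Tagln differed by −2.29 ± 1.17 (adjusted p = 0.587). Tubb6 at 24 h read 826, 861 and 668 with nifedipine and 580.4, 579 and 487 in controls, without overlap (0.51 ± 0.25, adjusted p = 0.554; 8.04% of all probe sets lay wholly above).

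NNK, a nitrosamine of tobacco, gave no call at 72 h (background 3.32% of probe sets, 1.67% higher), with 3 genes at an unadjusted p under 0.05. Tubb6 read 875, 1182 and 809 with NNK and 662, 762 and 472 in controls (0.61 ± 0.25, adjusted p = 0.197). Pfn1 read 3089.6, 3429 and 3042 with NNK and 2705, 2756 and 2369.8 in controls (a difference of 0.29). Both passed with the D number as a block, which pairs these arrays (adjusted p = 0.0151 and 0.0434). Without D number 3, Pfn1 passed (adjusted p = 0.0310) and Tubb6 did not (adjusted p = 0.121). Tubb6, Pfn1 and Ezr had every NNK array above every control array, against 13.3% of all probe sets.

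At 24 h of NNK no gene was called (background 0.92% of probe sets, 0.499% lower) and none had an unadjusted p under 0.05. Tubb6 read 755, 847 and 681 with NNK and 506, 573 and 538 in controls. Every array with NNK again lay above every control array for Pfn1, Ezr and Tubb6, against 11.4% of all probe sets.

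The other 3 compounds gave no calls at either time. The backgrounds were 0.0887% for piperonyl butoxide at 24 h, 0.0332% and 0.0166% for clonidine at 72 h and 24 h (at 24 h, 0.0111% higher and 0.00554% lower), and 0% for piperonyl butoxide at 72 h and for methapyrilene at both times. No gene had an unadjusted p under 0.05 in these 6 comparisons, apart from Tubb6 at 72 h of clonidine (0.60 ± 0.25, adjusted p = 0.955; 0.58 without D number 3). The medians were −0.12 at 72 h and −0.28 at 24 h of piperonyl butoxide, 0.06 and −0.001 at 72 h and 24 h of methapyrilene, and 0.09 and 0.04 at 72 h and 24 h of clonidine (0.08 and −0.02 without D number 3).

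Vim and Tubb6 were the genes whose sign varied least over the compounds, a choice made after their values were seen. Vim stood below 0 in 16 of 16 comparisons, from −1.90 at 72 h of Wy-14643 to −0.01 at 72 h of nifedipine, and in 16 of 16 with quantile normalization. Tubb6, a beta tubulin, stood above 0 in 15 of 16, from −0.12 at 24 h of methapyrilene to 0.76 at 72 h of Wy-14643, and in 14 with quantile normalization. Both counts, 16 and 15, were the same without D number 3, with Wy-14643 at 72 h at −2.27 for Vim and 0.78 for Tubb6. Compounds of a set share their control arrays, so the comparisons do not count separately. In clonidine cells every array of Tubb6 lay above every control array at 72 h and at 24 h (3.66% of all probe sets at 72 h and 3.77% at 24 h did so).

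**Figure D5:**
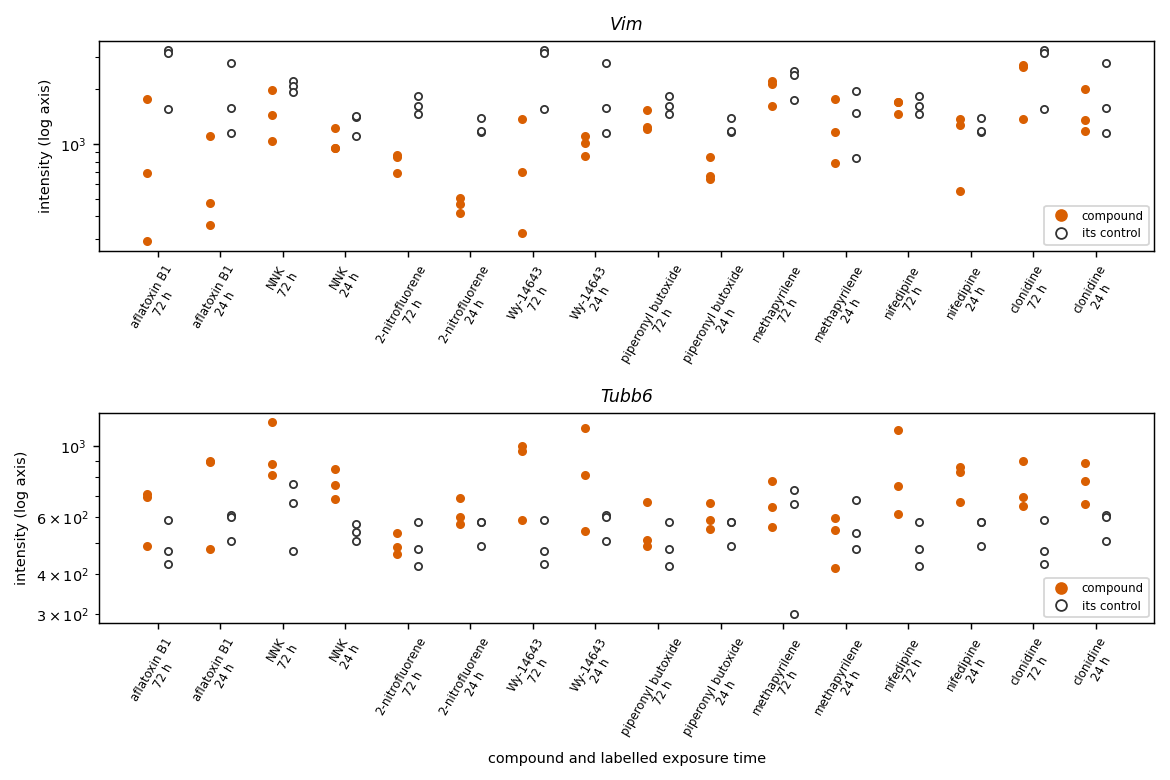
Intensity (log axis) of Vim (top) and Tubb6 (bottom) in each compound (filled) and its control (open) at the labelled 72 h and 24 h, 1 point per array. Controls shared by several compounds are drawn again beside each. Vim lies farthest below its control with aflatoxin B1, with 2-nitrofluorene at 24 h and with Wy-14643 at 72 h, and Tubb6 lies wholly above its control at both times with NNK, nifedipine and clonidine.

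Whether a compound's difference changed between 72 h and 24 h was tested directly. None of the 33 genes passed by limma for any of the 8 compounds, against 0% to 0.116% of all probe sets, and the smallest adjusted p was 0.571, for Krt7 with nifedipine (−3.11). At an unadjusted p under 0.05 there were 3 genes for Wy-14643, 1 each for aflatoxin B1, 2-nitrofluorene and nifedipine, and none for the other 4. At that unadjusted p, the fit without D number 3 gave 4 for aflatoxin B1, 4 for Wy-14643 and none for clonidine, again with none passing. Krt8 with Wy-14643 changed by −0.69 (adjusted p = 0.663). Tpm2 with NNK stood above its control in all 3 pairs at 72 h (0.71, 0.42 and 0.55) and below in all 3 at 24 h (−0.82, −0.73 and −0.26), and the difference of 1.17 ± 1.53 (adjusted p = 0.999) did not pass.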

How the data were processed

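Total RNA of each culture was labelled with biotin and hybridised to 1 array. The authors deposited 1 table of MAS5 intensities for 72 arrays and 31099 probe sets (57 controls), per the submitters' processing notes; the MAS5 version is not given in the sources used here. Each array was already scaled, since its 2% trimmed mean was 99.99. All sample columns were used. Intensities were raised to a floor of 3.117 (the table's 20th percentile) and put on a log2 scale. Probe sets were kept where a group's mean reached the table's median of 19.74, which left 18048 (58.1% of those that are not controls). Gene names came from the platform annotation: 20826 probe sets had 1 symbol, 436 several and 9780 none. limma 3.58.1 in R 4.3.3 (lmFit, eBayes with trend) was fitted to 24 group means with 48 residual degrees of freedom, and p-values were adjusted by Benjamini-Hochberg over all kept probe sets of a contrast; the threshold was 0.05. The fit was tested on simulated data.

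The number of arrays limits the precision. Per the labels, the experiments of each compound were independent, though compounds of a set share control arrays and D numbers. No pair of arrays correlated above 0.985, which does not by itself show independence. The D number paired the arrays in 16 of 20 comparisons, in which the residuals of every pair correlated above 0.1 (range over all 20, −0.286 to 0.829); it did not for aflatoxin B1 at either time or for culture time in the NNK controls and in those shared with 2-nitrofluorene. Named genes were the called members, up to 10 per direction, a fixed group of members and up to 4 called genes of each other list; other members were named after their values were seen. Members, lists and the separate treatment of D number 3 were chosen with earlier results of these data known. Windows came from RefSeq (GRCr8), 33469 in all. Alternatives were quantile normalization, log2(value + 16), no filter, no trend, the D number as a block, the actin ratio as a covariate, leaving out arrays of high actin ratio (log2 above 1.5), D number 3 or single arrays, and each set by itself; D number 3 was left out of the other gene lists as an alternative chosen after seeing the data.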

Additional observations from a re-analysis of the deposited data

How the results depend on the processing

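Counts of listed genes called were within 1.5 times the reported count except as follows, and no called value turned its direction. With the D number as a replicate block the counts were 9 at 72 h of Wy-14643, 2 at 72 h of NNK, 2 at 72 h of nifedipine, 1 at 24 h of 2-nitrofluorene, 4 in the methapyrilene controls over time, 1 in the contrast of the Wy-14643 control set with the others, and, where the numbers did not pair the arrays, 6 in the 2-nitrofluorene controls and 7 in the NNK controls. The block changed no other call count by that much. With quantile normalization they were 5 at 72 h of Wy-14643, 1 in the methapyrilene controls, 2 in the 2-nitrofluorene controls and 2 in the NNK controls, and the medians moved to 0.024 at 24 h of methapyrilene and −0.057 at 72 h of nifedipine. With log2(value + 16) they were 2 in the 2-nitrofluorene and 2 in the NNK controls. With the actin ratio as a covariate they were 1 at 72 h of NNK, 1 at 24 h of 2-nitrofluorene, 5 at 72 h of Wy-14643, and 1, 3 and 2 in the methapyrilene, 2-nitrofluorene and NNK controls, and the median at 24 h of methapyrilene was −0.025. Without arrays of high actin ratio, which left 1 array of aflatoxin B1 per time, they were 1 at 72 h of NNK, 1 at 24 h of 2-nitrofluorene, 6 at 72 h of Wy-14643, 1 at 72 h of nifedipine, and 3, 5 and 6 in those control sets. Without D number 3 they were 1, 1 and 5 at 72 h of NNK, 24 h of 2-nitrofluorene and 72 h of Wy-14643, and 3, 4 and 5 in those control sets. With each set by itself they were 0 for aflatoxin B1 at 72 h and at 24 h and for Wy-14643 at 72 h, 1 for 2-nitrofluorene at 72 h and 1 at 24 h, 2 for nifedipine at 72 h, 6 in the 2-nitrofluorene controls and 11 in the NNK controls. Why these counts moved was not tested.

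Leaving out single arrays gave counts of 1 to 5 at 72 h and 0 to 1 at 24 h of aflatoxin B1, 0 to 12 at 72 h of Wy-14643, 9 to 13 in the 3 control sets over time, 0 to 2 in the methapyrilene controls, 0 to 1 in the 2-nitrofluorene controls and 0 to 1 in the NNK controls, and 0 in the other comparisons. Medians over the genes then ranged from −0.59 to −0.21 at 24 h of 2-nitrofluorene, −0.15 to 0.14 at 24 h of aflatoxin B1, −0.12 to 0.29 at 72 h and −0.18 to 0.17 at 24 h of clonidine, −0.17 to 0.30 at 72 h and −0.20 to 0.091 at 24 h of methapyrilene, −0.16 to 0.066 at 72 h of nifedipine, −0.21 to 0.026 at 72 h and −0.38 to −0.053 at 24 h of piperonyl butoxide, −0.235 to −0.083 at 24 h of Wy-14643, and 0.22 to 0.77 in the methapyrilene controls. In the controls over time, Flna lost its call on leaving out most single arrays (adjusted p up to 0.124). Tubb5, Tubb2a and Tpm4 (adjusted p = 0.0606 without methapyrilene control replicate 2 at 72 h) lost theirs without certain single arrays. Dim probe sets such as those of Krt7, Krt19 and Tubb2b lie at or near the floor at 24 h, so their differences are bounds or have no order.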
